A study of Mus musculus with 11 samples.

Results

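The genes studied here were 10 neighbours on mouse chromosome 11, running from Psme3 to Brca1 and holding Aoc3, Ifi35 and Vat1, and they were read in the terminal ileum of SKG and BALB/c mice. They were chosen by gene name and position, with their SKG to BALBc differences already known, so those differences are given as a description with no test. Probe names in the files are in capitals (PSME3, AOC2, AOC3, G6PC, RUNDC1, RPL27, IFI35, VAT1, RND2 and BRCA1) and are written here as mouse symbols. The 10 genes had 12 of the array's 25697 probes, and 10 of its 18138 gene names. Of these probes 11 passed the filter on dim probes (3 or more of the 8 arrays above background, which means a detection p under 0.05), and every gene kept at least 1. The probe that did not pass was the third probe of Aoc2, which was above background in 2 of 5 SKG ilea and 0 of 3 BALBc ilea.

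The SKG mice (5 arrays used, replicates 4 to 8, all in batch 3) have a BALB/c background and carry a point mutation in Zap70, a kinase that relays the T cell receptor signal. The BALBc mice (3 arrays) are the strain without that mutation, with replicates 1 and 2 in batch 2 and replicate 3 in batch 3. All mice were naive and aged 8 to 12 weeks, and each array holds amplified total RNA of the ileum of 1 mouse on Illumina MouseRef-8 bead arrays. A further 3 SKG arrays, batch 1, were left out because their values are out of step with the probe names.

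Probes above background numbered 12445 to 13201 on the SKG arrays and 12753 to 14076 on the BALBc arrays. The median raw signal was 98.5 to 105.6 on the SKG arrays, 103.7 on the batch 3 BALBc array, and 187.5 and 163.0 on the batch 2 BALBc arrays. Markers of ileal epithelium fitted the labelled tissue: 9 of the 11 such markers on the array passed the filter, and their mean log2 signal was 12.27 to 12.35 in SKG and 12.16 to 12.33 in BALBc ilea. Fabp2 and Slc10a2 of that list did not pass the filter. Albumin (Alb) and uromodulin (Umod), markers of liver and kidney, did not pass either, whereas transthyretin (Ttr) did.

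Genes that lie side by side share a stretch of chromosome but need not share regulation, and this stretch holds genes of unrelated kinds. Aoc3 encodes vascular adhesion protein 1, an amine oxidase on the surface of endothelium, smooth muscle and adipocytes that takes part in the entry of leukocytes into tissue. Ifi35 is induced by interferon and its protein pairs with Nmi. Vat1 encodes a membrane-associated protein of the quinone oxidoreductase family, first described on synaptic vesicles of electric rays.

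Promoter windows, from 250 bases before to 50 bases after the start of each gene, were taken from RefSeq in the build GRCm38.p6 and matched 8 of the 10 genes by symbol. Aoc3 and Rnd2 were not among those matched. The 4 windows shown are those of Ifi35 and Vat1, which were lower in SKG, and of Rpl27 and Aoc2, whose SKG and BALBc values overlapped. Rpl27 lies next to Ifi35, and Aoc2 lies next to Aoc3. Capitals mark matches, on either strand, to the TATA box TATAAA, the CCAAT box CCAAT, the Sp1 core GGGCGG or the core of the interferon-stimulated response element. Ifi35 lies at chr11:101448162-101448461 on the plus strand, Vat1 at chr11:101466150-101466449 on the minus strand, Rpl27 at chr11:101441995-101442294 on the plus strand and Aoc2 at chr11:101324813-101325112 on the plus strand.
Ifi35: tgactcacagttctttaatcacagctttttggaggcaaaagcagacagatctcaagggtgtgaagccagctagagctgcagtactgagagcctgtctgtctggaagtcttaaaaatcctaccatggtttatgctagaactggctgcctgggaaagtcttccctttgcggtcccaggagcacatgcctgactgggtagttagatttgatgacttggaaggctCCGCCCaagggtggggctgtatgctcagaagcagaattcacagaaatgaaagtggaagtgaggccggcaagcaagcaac
Vat1: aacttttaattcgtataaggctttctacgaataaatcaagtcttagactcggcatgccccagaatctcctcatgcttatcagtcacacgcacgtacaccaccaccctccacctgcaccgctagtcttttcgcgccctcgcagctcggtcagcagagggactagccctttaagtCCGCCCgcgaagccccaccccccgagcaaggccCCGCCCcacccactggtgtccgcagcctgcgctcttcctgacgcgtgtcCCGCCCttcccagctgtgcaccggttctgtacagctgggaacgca
Rpl27: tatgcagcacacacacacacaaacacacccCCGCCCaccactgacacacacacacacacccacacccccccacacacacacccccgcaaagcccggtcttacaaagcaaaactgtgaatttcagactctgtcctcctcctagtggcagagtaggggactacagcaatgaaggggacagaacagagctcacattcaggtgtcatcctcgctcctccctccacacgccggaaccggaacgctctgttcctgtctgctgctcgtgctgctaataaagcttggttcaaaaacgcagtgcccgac
Aoc2: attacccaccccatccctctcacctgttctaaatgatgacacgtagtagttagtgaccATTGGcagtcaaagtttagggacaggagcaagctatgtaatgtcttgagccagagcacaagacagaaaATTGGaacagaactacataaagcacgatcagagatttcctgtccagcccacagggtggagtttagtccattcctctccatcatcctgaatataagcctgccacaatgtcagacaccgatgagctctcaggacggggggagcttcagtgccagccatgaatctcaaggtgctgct

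The starts of Rpl27 and Ifi35 were 6167 bases apart, and those of Ifi35 and Vat1 were 17787 bases apart, with Vat1 read in the opposite direction. The 8 matched starts spanned 235742 bases, Psme3 to Brca1. GGGCGG stood in 4 of the 8 windows and in 35.7% of all 32851 promoter windows. It had 3 matches each in Vat1 and Rundc1 and 1 each in Ifi35 and Rpl27. CCAAT stood in 5 of 8 windows (37.4% of all windows) and TATAAA in 1 of 8, that of G6pc (13.6% of all windows). The core of the interferon-stimulated response element matched none of the 8 windows and 3.44% of all windows, so it was not in the window of the interferon-induced Ifi35. The broader patterns CANNTG (the E-box, where N is any base) and the outer letters of the CArG box stood in 6 and 5 of the 8 windows, and in 72.3% and 73.3% of all windows. No motif of those searched was in both the Ifi35 and Vat1 windows and missing from that of Rpl27. GGGCGG and the CArG outer letters were in both the Ifi35 and Vat1 windows and missing from those of Aoc2, G6pc and Brca1. Both were also in the windows of Rpl27 and Rundc1, where the strains overlapped.

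Aoc3, Ifi35 and Vat1 were lower in SKG ilea, with no overlap between the strains, whereas the strains overlapped for the other 7 genes. The log2 difference, SKG minus BALBc, was −4.78 for Aoc3, −2.84 for Vat1 and −2.71 for Ifi35, as fitted over the 8 arrays with batch as a random block. In that limma fit over all 13775 kept probes, 3 of the 11 kept probes of the region had an adjusted p under 0.05 with SKG lower and 0 with SKG higher. The background was 0.254% of all kept probes lower and 0.319% higher. Because the genes were chosen with this contrast known, nothing is read from that count. For the same 3 probes all SKG ilea lay below all BALBc ilea, against 5.25% of all kept probes (15.3% in either direction), and on the other 8 the strains overlapped. The median difference was −0.143 over the 11 probes and 0.011 over all kept probes.

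**Figure D1:**
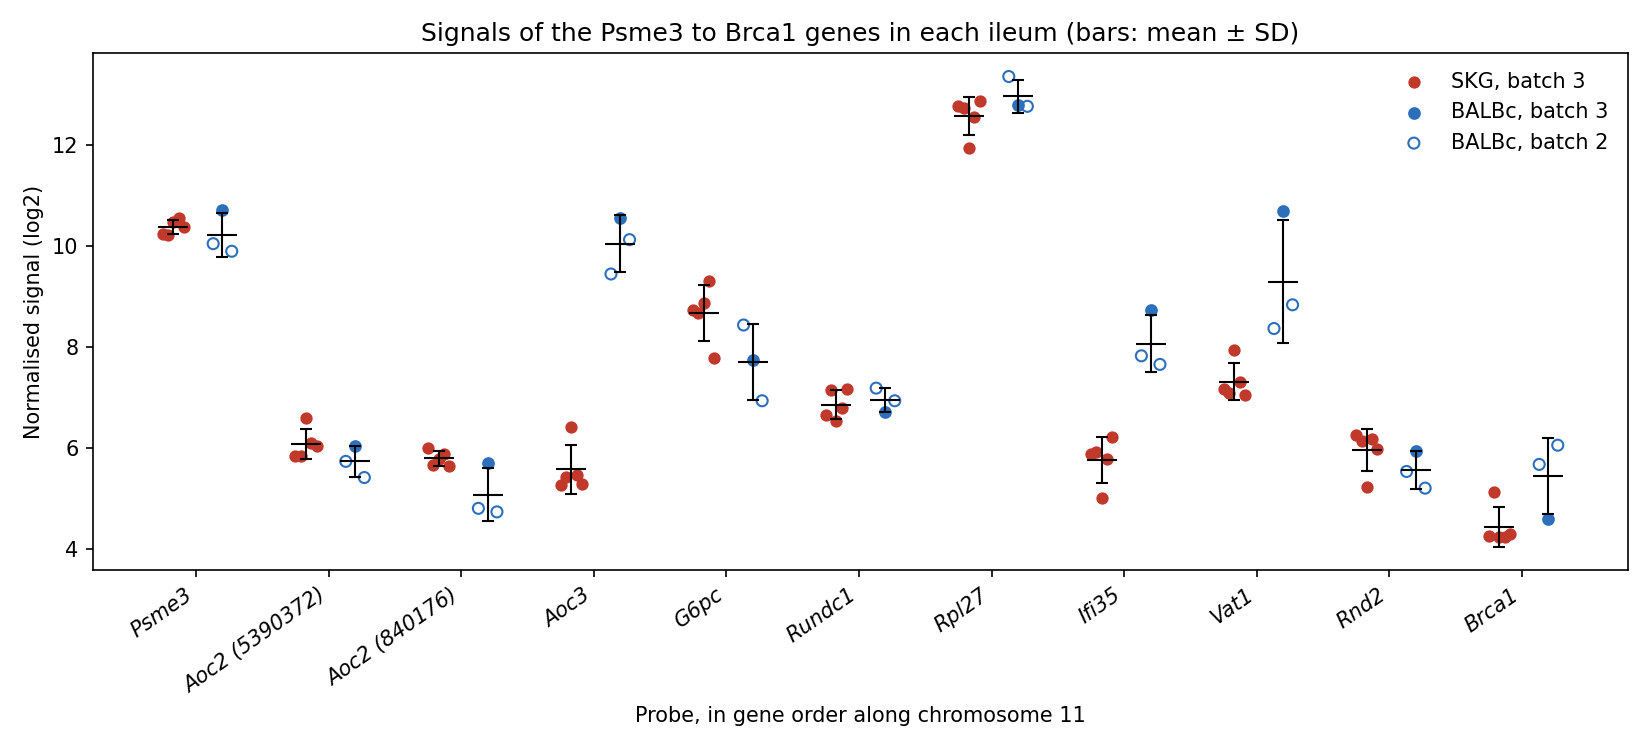
Normalised log2 signal of each kept probe (vertical axis) for the genes in chromosome order (horizontal axis), with 1 point per ileum, SKG left and BALBc right, and black bars for mean ± SD (n = 5 SKG and 3 BALBc). The groups stand apart for Aoc3, Ifi35 and Vat1 and overlap for the other 8 probes.

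The amine oxidase pair came first along the region. Aoc3 had normalised log2 signals of 5.28, 5.44, 6.42, 5.47 and 5.29 in SKG ilea (replicates 4 to 8), against 9.45, 10.13 and 10.56 in BALBc ilea (replicates 1 to 3). Every SKG value lay more than 3 log2 units below the lowest BALBc value, and SKG replicate 6 stood above the other 4 SKG ilea. SKG ilea averaged 5.58 ± 0.48 (SD, n = 5) and BALBc ilea 10.05 ± 0.56 (SD, n = 3), and the fitted difference was −4.78 (SE 0.39, 95% interval −5.65 to −3.92), or 27.6-fold lower in SKG. Without background correction it was −3.21, or 9.26-fold lower, so the size depends on how SKG signals close to background are treated. The probe was above background on all 8 arrays. Before normalisation its bead signal, divided by the median signal of the same array, was 1.04 to 1.18 in SKG ilea, against 9.07, 13.4 and 9.72 in BALBc ilea. No other kept probe had a more negative fitted difference.

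Aoc2, the neighbouring amine oxidase gene, known in humans from retina, showed no such difference, on probes close to background in both strains. Its probe 5390372 had 5.85, 5.84, 6.59, 6.11 and 6.04 in SKG ilea, against 5.74, 5.42 and 6.05 in BALBc ilea, a fitted difference of 0.16 (SE 0.29, 95% interval −0.48 to 0.79). Its probe 840176 had 6.00, 5.66, 5.79, 5.89 and 5.64 in SKG ilea, against 4.81, 4.74 and 5.70 in BALBc ilea, a fitted difference of 0.33 (SE 0.26, 95% interval −0.24 to 0.91). On the second probe all SKG ilea were above the batch 2 BALBc ilea and level with the batch 3 BALBc ileum. Bead signals on these 2 probes were 1.08 to 1.22 times the array median in SKG ilea and 0.954 to 1.34 times in BALBc ilea. A fall like that of Aoc3 could therefore not have been seen on them. Of the other amine oxidases, 3 passed the filter and 0 were called in either direction (differences −0.95 to 0.65).

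Ifi35 had 5.89, 5.93, 5.01, 5.78 and 6.23 in SKG ilea, against 7.83, 7.66 and 8.73 in BALBc ilea. SKG replicate 6, the highest SKG ileum for Aoc3, was the lowest for Ifi35. SKG ilea averaged 5.77 ± 0.46 (SD, n = 5) and BALBc ilea 8.07 ± 0.57 (SD, n = 3), and the fitted difference was −2.71 (SE 0.37, 95% interval −3.52 to −1.90), or 6.53-fold lower in SKG. It was −1.50 (2.83-fold lower) without background correction and −1.99 (3.97-fold lower) without BALBc replicate 3, and the SKG bead signals were 1.01 to 1.24 times the array median. Nmi, the partner of the Ifi35 protein, had a difference of −0.21 (SE 0.29), on values mostly not above background in batch 3. Its log2 signals were 4.34, 4.78, 4.75, 4.87 and 4.59 in SKG ilea and 4.59 in the batch 3 BALBc ileum. The lowest values above background on those arrays were 4.81 to 4.98. In the batch 2 BALBc ilea Nmi had 5.63 and 5.82. Among 10 interferon-related genes that passed the filter, Nmi included, 0 were called in either direction, and their median difference was −0.10 (range −0.74 to 0.80).

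Vat1, the next gene along, had 7.17, 7.10, 7.94, 7.32 and 7.06 in SKG ilea, against 8.37, 8.84 and 10.69 in BALBc ilea. BALBc replicate 3 was 2.08 log2 units above the mean of the other BALBc ilea, so the size of the difference depends on which BALBc array is used. SKG ilea averaged 7.32 ± 0.36 (SD, n = 5) and BALBc ilea 9.30 ± 1.22 (SD, n = 3), and the fitted difference was −2.84 (SE 0.44, 95% interval −3.80 to −1.87), or 7.14-fold lower in SKG. Without BALBc replicate 3 it was −1.29 (2.45-fold lower) and with no batch term −1.98 (3.95-fold lower), and the probe lost its call in 6 of 17 alternative settings (without SKG replicate 4, 5, 7 or 8, without BALBc replicate 2, and with no filter on dim probes). In the authors' deposited table of log2 values, which holds 5 of the 10 genes and Vat1 but not Aoc3 or Ifi35, Vat1 ranged from −2.45 to −1.80 in SKG ilea (replicates 4 to 8), against 1.27 to 1.71 in BALBc ilea. Of 5 relatives of Vat1 in the same enzyme family, 0 were called, and the closest one, Vat1l, had a difference of −0.39 (SE 0.40).

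Psme3 encodes the gamma subunit of the nuclear proteasome activator. It had 10.25, 10.22, 10.47, 10.55 and 10.39 in SKG ilea, against 10.05, 9.90 and 10.71 in BALBc ilea, and a fitted difference of −0.14 (SE 0.25, 95% interval −0.69 to 0.40). The SKG values lay between the BALBc values. The related activator genes Psme1, Psme2 and Psme4 had differences of −0.49, 0.09 and 0.23, and 0 of the 3 were called.

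G6pc encodes the catalytic subunit of glucose-6-phosphatase, the last step of glucose release in liver, kidney and small intestine. It had 8.74, 8.67, 8.88, 9.31 and 7.78 in SKG ilea, against 8.44, 6.94 and 7.75 in BALBc ilea. The groups overlapped, and the fitted difference of 0.94 (SE 0.49, 95% interval −0.15 to 2.03) was the largest among the 8 probes that were not called. Of 5 other genes of glucose 6-phosphate handling and gluconeogenesis that passed the filter, 0 were called; the paralog G6pc3 had a difference of −0.57 (SE 0.56) and G6pc2 did not pass the filter.

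Rundc1 and Rpl27 lie between G6pc and Ifi35. Rundc1, which encodes a protein with a RUN domain, had 6.66, 7.16, 6.53, 6.79 and 7.17 in SKG ilea, against 7.19, 6.94 and 6.71 in BALBc ilea, and a fitted difference of 0.06 (SE 0.28, 95% interval −0.55 to 0.67). Rpl27, a protein of the large ribosomal subunit, had 12.78, 12.74, 11.95, 12.56 and 12.87 in SKG ilea, against 13.36, 12.77 and 12.80 in BALBc ilea, and a fitted difference of −0.29 (SE 0.32). Both genes overlapped between strains, and SKG replicate 6 was the lowest of all 8 ilea for each. Over 26 other genes of the large ribosomal subunit the median difference was −0.17, with 0 called.

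Rnd2, an atypical small GTPase, follows Vat1. It had 6.26, 6.15, 5.23, 6.19 and 5.98 in SKG ilea, against 5.54, 5.21 and 5.95 in BALBc ilea, and a fitted difference of 0.16 (SE 0.34, 95% interval −0.58 to 0.90). The groups overlapped, and SKG replicate 6 again stood below the other SKG ilea. Over both strains the Rnd2 bead signals were 1.03 to 1.24 times the array median, so a large fall in SKG could not have been seen. Its paralog Rnd3 had a difference of 0.31 (SE 0.37), and Rnd1 did not pass the filter.

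Brca1, which acts in the repair of DNA double-strand breaks, had 4.27, 5.14, 4.24, 4.25 and 4.31 in SKG ilea, against 5.68, 6.06 and 4.59 in BALBc ilea. It was above background in 1 of 5 SKG ilea and 2 of 3 BALBc ilea, so its SKG level was measured in 1 ileum only. The 2 BALBc ilea above background were those of batch 2, and the batch 3 BALBc ileum lay among the SKG values. The fitted difference of −0.48 (SE 0.37, 95% interval −1.29 to 0.34) rests mostly on SKG values that were not above background. Of 5 Brca1 partner genes that passed the filter, 0 were called.

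Because 2 of the 3 BALBc arrays were in another batch than every SKG array used, each difference was also taken within batch 3 and against batch 2. Within batch 3, SKG minus BALBc replicate 3 was −4.98 for Aoc3, −3.37 for Vat1 and −2.96 for Ifi35. Against the batch 2 BALBc ilea it was −4.21 for Aoc3, −1.29 for Vat1 and −1.98 for Ifi35. These 3 genes were therefore lower against both sets of BALBc arrays. Within batch 3 the BALBc ileum lay above all 5 SKG ilea on 4 of the 11 probes, the fourth being Psme3, against 21.3% of all kept probes. It lay below all 5 SKG ilea on 1 probe, G6pc, against 22.0% of all kept probes.

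Several of the other genes moved with batch. Psme3 was −0.33 within batch 3 and 0.40 against batch 2, and Rundc1 was 0.15 and −0.20, so the sign depended on the batch for both. For Brca1 no difference within batch 3 was measured, since neither the BALBc ileum of that batch nor 4 of its 5 SKG ilea were above background. Aoc2 probe 840176 was 0.10 within batch 3 and 1.02 against batch 2, and Rnd2 was 0.01 and 0.59. G6pc had like values in both, 0.92 within batch 3 and 0.98 against batch 2. With 1 BALBc array in batch 3, these within-batch values have no replicate on the BALBc side.

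**Figure D2:**
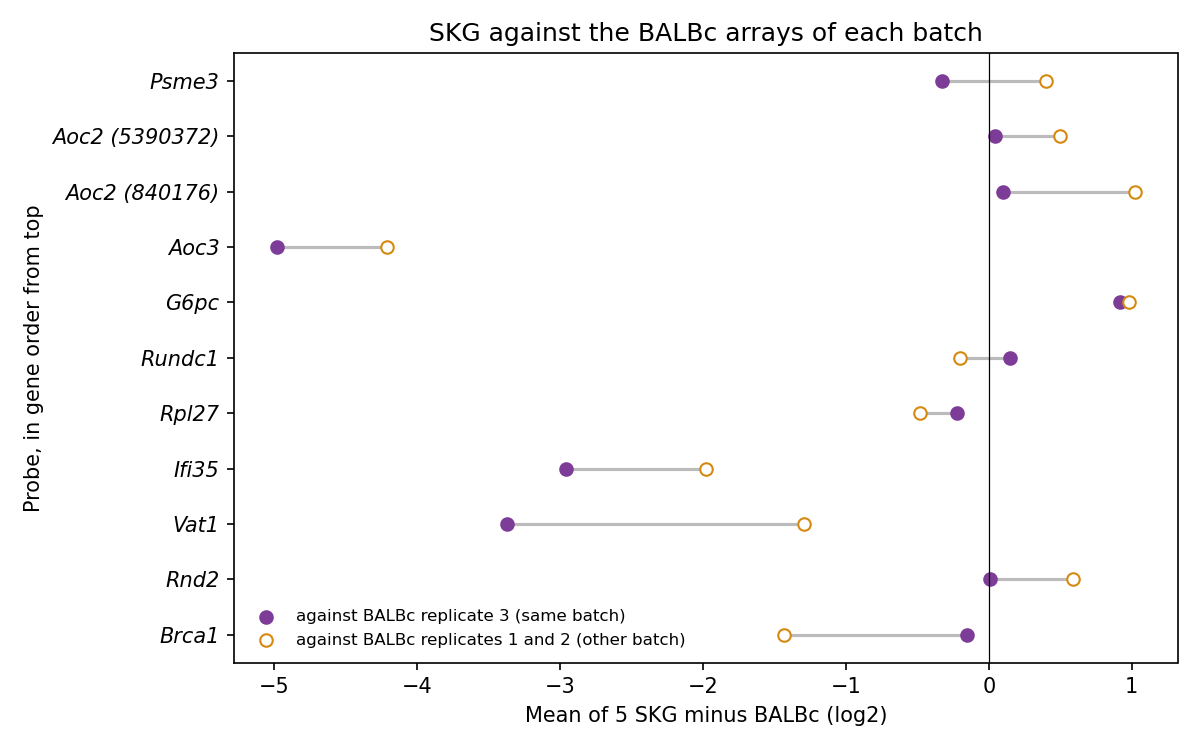
Mean of the 5 SKG ilea minus the BALBc ileum of the same batch (filled) or the mean of the 2 BALBc ilea of batch 2 (open), in log2 units (horizontal axis), for each kept probe in chromosome order from the top. Aoc3, Ifi35 and Vat1 lie below 0 in both comparisons, whereas Psme3 and Rundc1 change side. The Brca1 points rest on values mostly not above background.

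The region was then set against its surroundings. The array holds 12 genes between Psme3 and Brca1 inclusive, and the 2 besides the 10 described were Aarsd1 and Ptges3l, which lie between G6pc and Rundc1. Together with 20 array genes on each side they make 42 flanking genes, of which 33 passed the filter with 48 probes. Their median difference was 0.07 (range −1.25 to 1.14), and 1 of the 48 probes was called lower and 0 higher, against 0.254% and 0.319% of all kept probes.

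The called flanking gene was Ramp2, whose protein pairs with the calcitonin receptor-like receptor to form an adrenomedullin receptor. It had 7.70, 7.77, 7.70, 7.58 and 7.96 in SKG ilea, against 8.95, 9.32 and 8.94 in BALBc ilea. The groups did not overlap, and the difference was −1.25 (SE 0.23, limma adjusted p = 0.0468) and −1.20 within batch 3. Ramp2 lies 6 array genes before Psme3, and its call held in 8 of 16 alternative settings. It was lost without SKG replicate 4, 5, 7 or 8, without BALBc replicate 1 or 2, with batch as a fixed block and in batch 3 alone.

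Aarsd1, an editing enzyme for mischarged alanyl-tRNA, averaged 7.55 ± 0.21 in SKG ilea (SD, n = 5) and 8.13 ± 0.27 in BALBc ilea (SD, n = 3), without overlap. Its difference of −0.75 (SE 0.25) was not called (limma adjusted p = 0.223). Ptges3l, named for its likeness to a prostaglandin E synthase, had 2 probes with differences of 1.12 (SE 0.32, limma adjusted p = 0.162) and 1.14 (SE 0.27, limma adjusted p = 0.100), neither called, with SKG above BALBc in all ilea on both. Over the 48 flanking probes the strains did not overlap with SKG lower on 3 and with SKG higher on 10, against 5.25% and 10.0% of all kept probes. Becn1, an autophagy gene just before Psme3, had differences of 0.41 (SE 0.41) and −0.74 (SE 0.55) on its 2 probes. Its second probe had 4.96 to 5.72 in SKG ilea, against 8.29 and 8.34 in the batch 2 BALBc ilea and 5.14 in that of batch 3, so the negative sign came from batch 2. Nbr1, an autophagy receptor gene just after Brca1, had differences of 0.26 (SE 0.50) and 0.44 (SE 0.36).

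**Figure D3:**
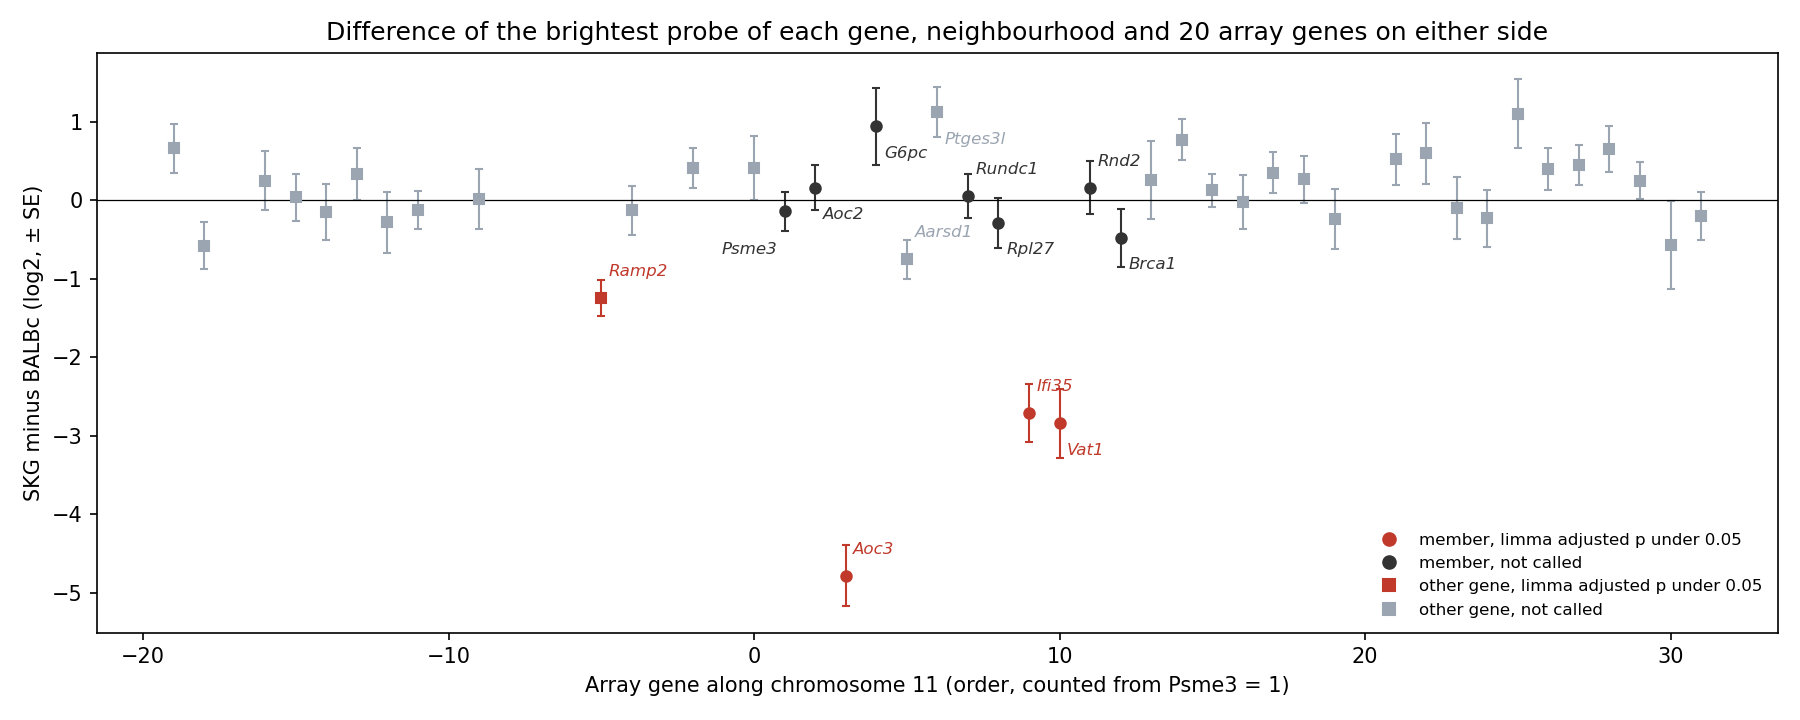
Fitted SKG minus BALBc difference of the brightest kept probe of each gene (log2, ± SE, vertical axis) against gene order along chromosome 11 (horizontal axis), with circles for the 10 genes described and squares for flanking genes. Aoc3, Ifi35 and Vat1 lie far below 0, Ramp2 lies at −1.25, and the other genes from Ramp2 to Vat1 lie between −0.75 and 1.12.

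On the whole of chromosome 11, 1191 probes passed the filter, and 11 were called lower and 2 higher (1.09% in either direction, against 0.574% of all kept probes). Those called lower include the 3 probes of Aoc3, Ifi35 and Vat1. The share thus rests in part on genes chosen with this contrast known, and nothing is read from it. No called gene on the chromosome lay beyond Vat1 in the direction of Brca1. The nearest called gene before Ramp2 was Krt23, a keratin gene, 66 array genes before Psme3.

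The probes whose pattern over the 8 arrays was most like that of Aoc3 came from other chromosomes. By Pearson correlation, given as a description over 8 arrays that share strain and batch structure, these were Gtf2ird2 (0.996), Arl2bp (0.990), AI467606 (0.988), Ephb2 (0.984) and Glo1 (0.981). Gtf2ird2, Arl2bp and AI467606 were also called lower, with differences of −2.96, −2.78 and −2.30. Vat1 came 132nd with 0.899 and Ifi35 142nd with 0.895, where 13775 probes were kept. Both neighbours were thus near the top of this ranking, though not at its head. In the reverse direction Aoc3 came 84th for Ifi35 and 68th for Vat1. For Ifi35, Mrps6 (0.965) and Cd59b (0.964) were among the 3 most alike. For Vat1 they were Rab34 (0.983), which is also on chromosome 11 and was called lower, reelin (Reln, 0.981) and filamin A (Flna, 0.977).

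Among the SKG ilea, replicate 6 stood apart on several probes of the region, in both directions. SKG replicate 6 was above the mean of the other 4 SKG ilea by 1.05 for Aoc3 and 0.78 for Vat1. For Ifi35, Rnd2 and Rpl27 its difference from that mean was −0.95, −0.91 and −0.79. On the remaining kept probes of the region it lay between −0.42 and 0.63. Without that replicate the SD over SKG ilea was 0.10 for Aoc3, 0.11 for Vat1 and 0.19 for Ifi35. In this ileum Vat1 and Aoc3 were thus above the other SKG ilea and Ifi35 below them. For Aoc3, Ifi35 and Rnd2 the gaps lie close to background. Their bead signals in replicate 6 were 118.1, 100.8 and 102.4, where the array median was 99.9. In the other SKG ilea they were 102.3 to 113.5 for Aoc3, 110.8 to 130.6 for Ifi35 and 118.5 to 129.8 for Rnd2.

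Markers of cell types known to carry Aoc3 were measured beside it. All 8 smooth muscle genes that passed the filter had negative fitted differences on their brightest probe (median −0.61), but against the batch 2 BALBc ilea alone 6 of the 8 were higher in SKG (median 0.32). Their mean signal was 9.91 to 10.55 in SKG and 9.97 to 11.03 in BALBc ilea. None was called on that probe, but Acta2, smooth muscle actin, had 2 dimmer probes that were called lower, by limma, with differences of −2.28 (adjusted p = 0.0438) and −2.37 (adjusted p = 0.0263), while its brightest had −0.12. The call of both dimmer probes was lost with batch as a fixed block, in batch 3 alone, and without SKG replicate 4, 7 or 8 or BALBc replicate 2. The −2.28 probe lost it also without BALBc replicate 1, without background correction, with no filter on dim probes and in the authors' deposited table. Of 10 endothelial genes 9 had negative fitted differences (median −0.58) and 0 were called, but against the batch 2 BALBc ilea alone 6 of the 10 were higher in SKG (median 0.15). Their mean signal was 6.44 to 6.82 in SKG and 6.41 to 7.27 in BALBc ilea. In the marker list of adipocytes, 4 of 8 genes were negative (median −0.11), whereas against the batch 2 BALBc ilea alone all 8 were higher in SKG (median 1.04). The mean signal was 7.47 to 8.75 in SKG and 6.37 to 8.32 in BALBc ilea. The highest of these adipocyte means, 8.75, was that of SKG replicate 6, the ileum in which Aoc3 and Vat1 were also highest among SKG. That ileum was also the highest SKG ileum for smooth muscle (10.55) and for the T cell list (6.69). For endothelium it had 6.79, below replicate 8 (6.82). It was the lowest SKG ileum for macrophage (6.72) and ileal epithelium markers (12.27). The sign of the median on the smooth muscle, endothelial and adipocyte lists thus depended on which BALBc arrays were used. Replicate 3 is the only BALBc array in the batch of the SKG arrays, so replicate and batch cannot be told apart. On all 3 lists replicate 3 was the highest BALBc ileum, as it was for Aoc3, Ifi35 and Vat1. The same held for the T cell and macrophage lists described next, but not for ileal epithelium.

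Immune markers differed more. All 7 T cell genes that passed the filter had negative fitted differences (median −1.66), and 6 of the 7 were lower in SKG against the batch 2 BALBc ilea alone (median −1.18), with a mean signal of 5.60 to 6.69 in SKG and 6.82 to 8.12 in BALBc ilea, which did not overlap. Cd6, a T cell surface receptor, was called lower on each of its 3 probes by limma (brightest −2.97, SE 0.53, adjusted p = 0.0405). The call of 1 of these probes held with any 1 array left out, and the calls of the other 2 were lost without SKG replicate 4, 5, 7 or 8 or BALBc replicate 1, in batch 3 alone and with no filter on dim probes. The brightest probe lost its call without BALBc replicate 2 as well. All 7 macrophage genes were negative (median −0.77, 0 called), 5 of the 7 also against the batch 2 BALBc ilea alone (median −0.18), with a mean of 6.72 to 7.02 in SKG and 7.32 to 7.70 in BALBc ilea. The part of these cell types in the Aoc3, Ifi35 and Vat1 differences was not tested, and in whole ileum fewer cells of a type and less RNA per cell cannot be told apart. Kdr, Synpo2, Fabp4, Retn, Cd8a, Cd247 and Cd163 of these lists did not pass the filter.

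**Figure D4:**
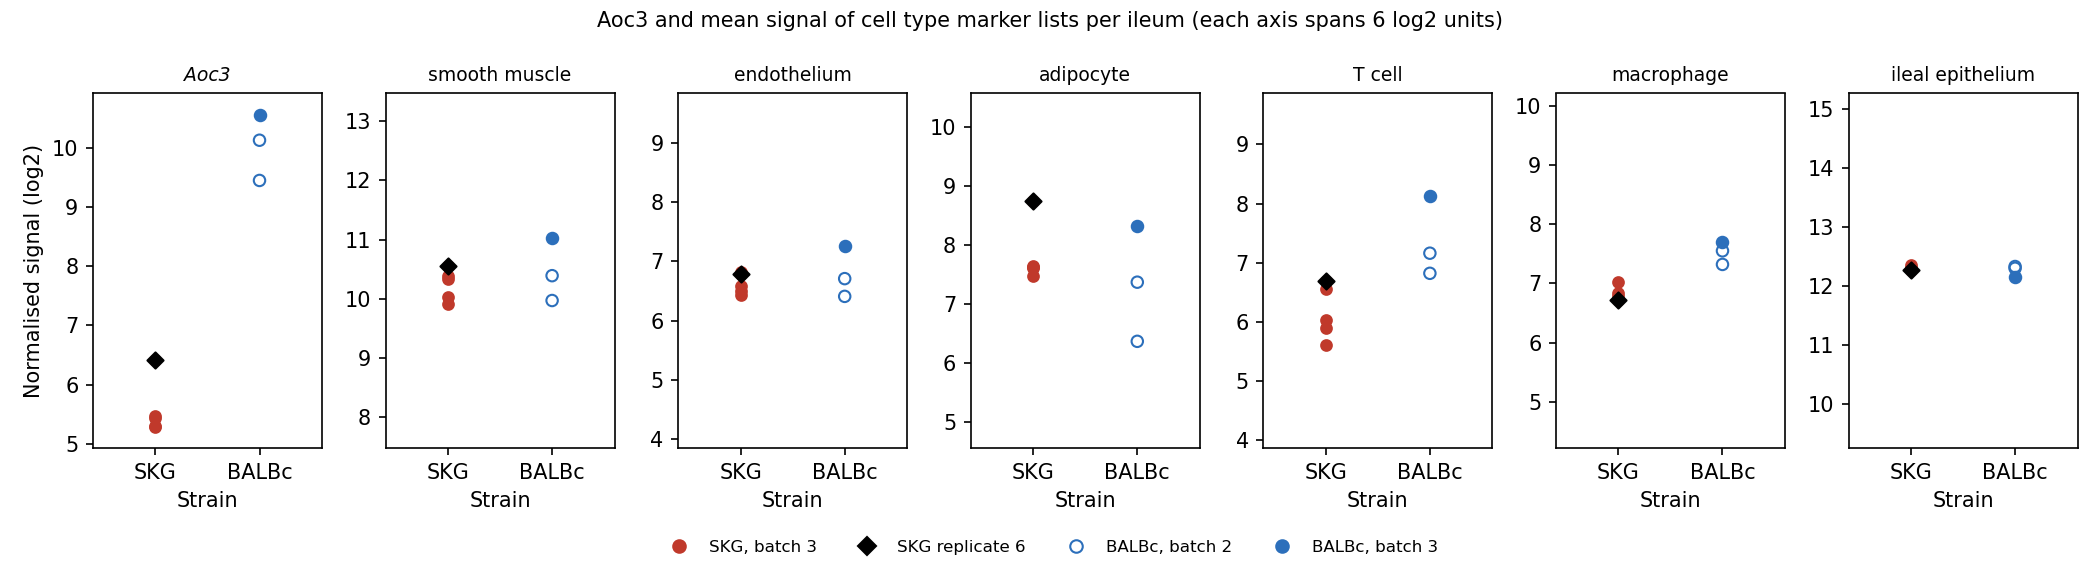
Normalised log2 signal of Aoc3 (first panel) and mean signal of 6 marker lists per ileum (other panels), SKG left and BALBc right, each vertical axis spanning 6 log2 units. Aoc3 separates the strains by more than any list, T cell and macrophage means separate them by less, and smooth muscle, endothelium, adipocyte and ileal epithelium means overlap.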

How the data were processed

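Total RNA of the terminal ileum of SKG and BALBc mice was hybridised to 1-colour Illumina bead arrays, 1 per mouse, so p-values cover the spread between mice. Bead signals are an intensity exported by the authors from GenomeStudio 1.9.0 without normalisation, per the file headers. The detection column, deposited as a fraction, is 1 minus the detection p. Bead numbers, deposited as counts, served to check row order. An alternative used the log2 values of the authors' deposited table; the sources used here do not give its centring. The submitters' processing notes name GenomeStudio and limma.

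The 3 batch 1 arrays were left out: their signals had rank correlations of 0.0768 to 0.0966 with the other arrays, against 0.838 to 0.947 among the other 8, and their bead numbers correlated at 0.00568, against 0.549.

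Signals were background-corrected by normexp from detection p, followed by an offset of 16, quantile normalisation and log2 (neqc, limma 3.58.1, R 4.3.3, statmod 1.5.0). The filter kept 13775 probes whose detection p was under 0.05 on 3 or more of the 8 arrays. SKG was compared with BALBc by limma with batch as a random block (consensus correlation 0.545), two-sided, with Benjamini-Hochberg adjustment over all kept probes and a threshold of 0.05, tested on simulated data. Differences are SKG minus BALBc, and a fitted difference weighs the batches, so it is not the difference of the plain means. Gene lists are summarised by the brightest kept probe of each gene that is not one of the 10. Of 18138 gene names 14309 matched the GRCm38.p6 gene table by symbol and 2886 by an older name. That table gave gene order only, since the files name no build. The precision is limited by the number of arrays.

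The genes and lists were chosen with earlier results of these data known. Named were all 10 genes, the called flanking genes and nearest neighbours, called and directly paralogous list members, and the probes most correlated with Aoc3 (5), Ifi35 (3) and Vat1 (3); 1 of those for Ifi35 is not reported here. Aarsd1, Ptges3l, Krt23 and further list genes were named after their values were seen. Alternatives covered the batch term, scaling, background correction, filter, the authors' table and each array left out.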

Additional observations from a re-analysis of the deposited data

Results flagged for a closer look

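In each of the 11 groups of 5 SKG values, the gap between the highest or lowest ileum and its nearest neighbour was divided by the range and set against Dixon's critical value of 0.71. Chance alone passes about 1 group in 20. Aoc3 in SKG replicate 6 was 6.42, with a gap of 0.831 of the range, against 5.28 to 5.47 in the other SKG ilea. Rnd2 in SKG replicate 6 was 5.23, with a gap of 0.721 of the range, against 5.98 to 6.26 in the other SKG ilea. Aoc3 and Rnd2 were both close to background in SKG ilea, with bead signals of 102.3 to 118.1 and 102.4 to 129.8. Brca1 in SKG replicate 5 was 5.14, with a gap of 0.922 of the range, against 4.24 to 4.31 in the other SKG ilea, where its probe was not above background.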

How the results depend on the processing

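No paired analysis was possible because the SKG arrays used (replicates 4 to 8) and the BALBc arrays (replicates 1 to 3) share no replicate number. Aoc3 and Ifi35 were called lower in each of the 16 alternative settings that tested them (−5.09 to −3.21 and −2.96 to −1.50), and Vat1 in 11 of 17 (−3.74 to −1.29). These settings refit the same arrays for genes chosen with this contrast known. Such counts describe only the dependence on processing. Among the region's probes, 0 were called higher and 3 lower. The authors' deposited table, which lacks Aoc3 and Ifi35, gave 0 higher and 1 lower, and leaving out 1 array in turn gave 0 to 1 higher and 2 to 4 lower. Aoc2 probe 840176 and Brca1 were each called in 1 setting, without BALBc replicate 3, where batch and strain coincide and no batch term can be fitted.

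Over all probes 44 were called higher and 35 lower. The counts were 29 and 43 with batch as a fixed block, 428 and 273 with no batch term, 6 and 26 in batch 3 alone, 102 and 45 with scaling to the 75th percentile, 26 and 42 with cyclic loess, 40 and 46 without background correction, 81 and 43 with no filter on dim probes, 50 and 25 with probes above background on all 8 arrays, and 10 and 65 in the authors' deposited table. Leaving out 1 array in turn gave 8 to 2948 higher and 18 to 2193 lower; without SKG replicate 6 it gave 434 and 320, and the highest counts were without BALBc replicate 3. The share of calls that were higher was thus 55.7%, against 69.4% with scaling to the 75th percentile, which moved the median difference of all probes to 0.165, and 38.2% with cyclic loess. The cause of these shifts was not tested.

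Among flanking probes, 0 were called higher and 1 lower. There were 0 lower with a fixed block, in batch 3 alone and in the authors' table. With no batch term there were 3 higher, and leaving out 1 array gave 0 to 15 higher and 0 to 6 lower. Ptges3l was called higher in 3 settings for one probe and 2 for the other. The brightest Acta2 probe turned positive with no batch term (0.17), with scaling to the 75th percentile (0.21) and with no filter (0.01), and ranged from −0.19 to 0.37 with 1 array left out, the highest without BALBc replicate 3. Cd6 was called on its brightest probe in 7 of 15 settings, and the called Acta2 probes in 7 and 11 of 17. With 3 BALBc arrays, and 1 in the batch of the SKG arrays, small differences between neighbours could not be resolved, and values near background are compressed by the offset.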
